A study of Mus musculus with 6 samples.

Results

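The neuroblast and interneuron genes examined here are a group of 31 genes: the regulators, cytoskeletal proteins, surface molecules and enzymes that mark young neurons leaving the subventricular zone (SVZ) and their differentiation into GABA interneurons. A member counted as measured where at least 1 probe set carried its symbol and no other, and the probe set with the highest mean over the 6 arrays stood for it. By that rule 29 of the 31 were measured, among 18194 genes in all. Sp9 had no probe set, and the 3 probe sets of Etv1 also carry a second symbol, so neither is described. The tissue was the SVZ of adult male C57BL/6 mice, killed 48 h after surgery, profiled on 6 one-colour arrays of biotin-labelled total RNA. The MCAO group (3 arrays) had the middle cerebral artery occluded, a stroke model that deprives the striatum and lateral cortex of blood, and the SVZ was taken on the lesioned side. The sham group (3 arrays) had sham surgery. The labels do not say whether each array held 1 mouse, so a p-value here reflects how far these samples scatter, part of which may be technical, and they name no genotype or allele beyond the strain.

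The SVZ lines the lateral ventricle and is a site of lifelong neurogenesis in mice. Stem cells there give rise to dividing progenitors and then to neuroblasts, which migrate in chains to the olfactory bulb and become interneurons, most of them GABAergic. Dlx homeodomain factors drive the interneuron programme, Dcx and related proteins organise the microtubules of the migrating cell, and polysialic acid on Ncam1 lets cells slide past each other. After experimental stroke in rodents neuroblasts are known to turn toward the damaged striatum. Several members are also expressed by mature neurons, among them Gad1, Gad2, Meis2, Nrxn3, Stmn2, Elavl3 and Elavl4.

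None of the 29 members passed the test between MCAO and sham in the fit without a block, and 4 passed once the sample number was a block. Members lay on both sides of 0. Values are log2 expression, quantile-normalised, so that 1 unit is a doubling. In limma, with p adjusted over all genes by Benjamini-Hochberg, 0 of 29 members had an adjusted p under 0.05, where 1.13% of all genes did (1.12% higher in MCAO and 0.0165% lower). At an unadjusted p under 0.05 there were 4 members (Cd24a and Dpysl3 higher in MCAO, Dlx6 and Dclk1 lower), or 13.8%, against 8.77% of all genes (6.32% higher and 2.46% lower). The median difference, MCAO minus sham, was −0.01 log2 over the members and −0.01 log2 over all genes. The median absolute difference was 0.15 log2 over the members, against 0.07 over all genes and 0.10 over genes above the median sham level. The members ran from −0.33 for Dlx6 to 0.66 for Cd24a, with 13 above 0 and 16 below. On the values as deposited, without quantile normalisation, 18 lay above 0 and 11 below.

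In the fit without a block, the 95% interval of the difference lay within 1 log2 either side of 0, that is, excluded a doubling or halving, for 28 of 29 members, the exception being Cd24a. The same held for 98.3% of all genes. It lay within 0.5 log2 for 17 members, or 58.6%, against 85.1% of all genes and 76.4% of genes above the median sham level. The half-width of the interval was 0.30 log2 in the median member and ran from 0.16 to 0.59. With the sample number as a block it was 0.16 log2 in the median member, and the interval lay within 1 log2 for all 29 members (99.1% of all genes) and within 0.5 log2 for 24 (95% of all genes). That of Cd24a then ran from 0.42 to 0.89.

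Samples carry the same numbers, 1 to 3, in both groups, and same-numbered samples deviated together (the correlations and their limit are given with the processing). With the sample number as a block, 4 of 29 members passed over all genes, where 6.12% of all genes did (4.82% higher and 1.3% lower) and 8% of genes above the median sham level. Cd24a, Marcksl1 and Dpysl3 rose in MCAO and Dclk1 fell. The number 1 arrays stood apart from the other 4 along the first principal component, with 40.8% of the variance. Without both of them 0 members passed in the fit without a block, and with the block Cd24a and Marcksl1 alone passed. A blocked fit with a same-numbered pair left out has 1 degree of freedom for a gene's own variance. Its p-values rest mostly on the variance that limma borrows from all genes. The blocked fit on all 6 arrays also leaves few degrees of freedom for a gene's own variance. The p-values of the 4 members that passed in it rest mostly on borrowed variance too.

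**Figure D1:**
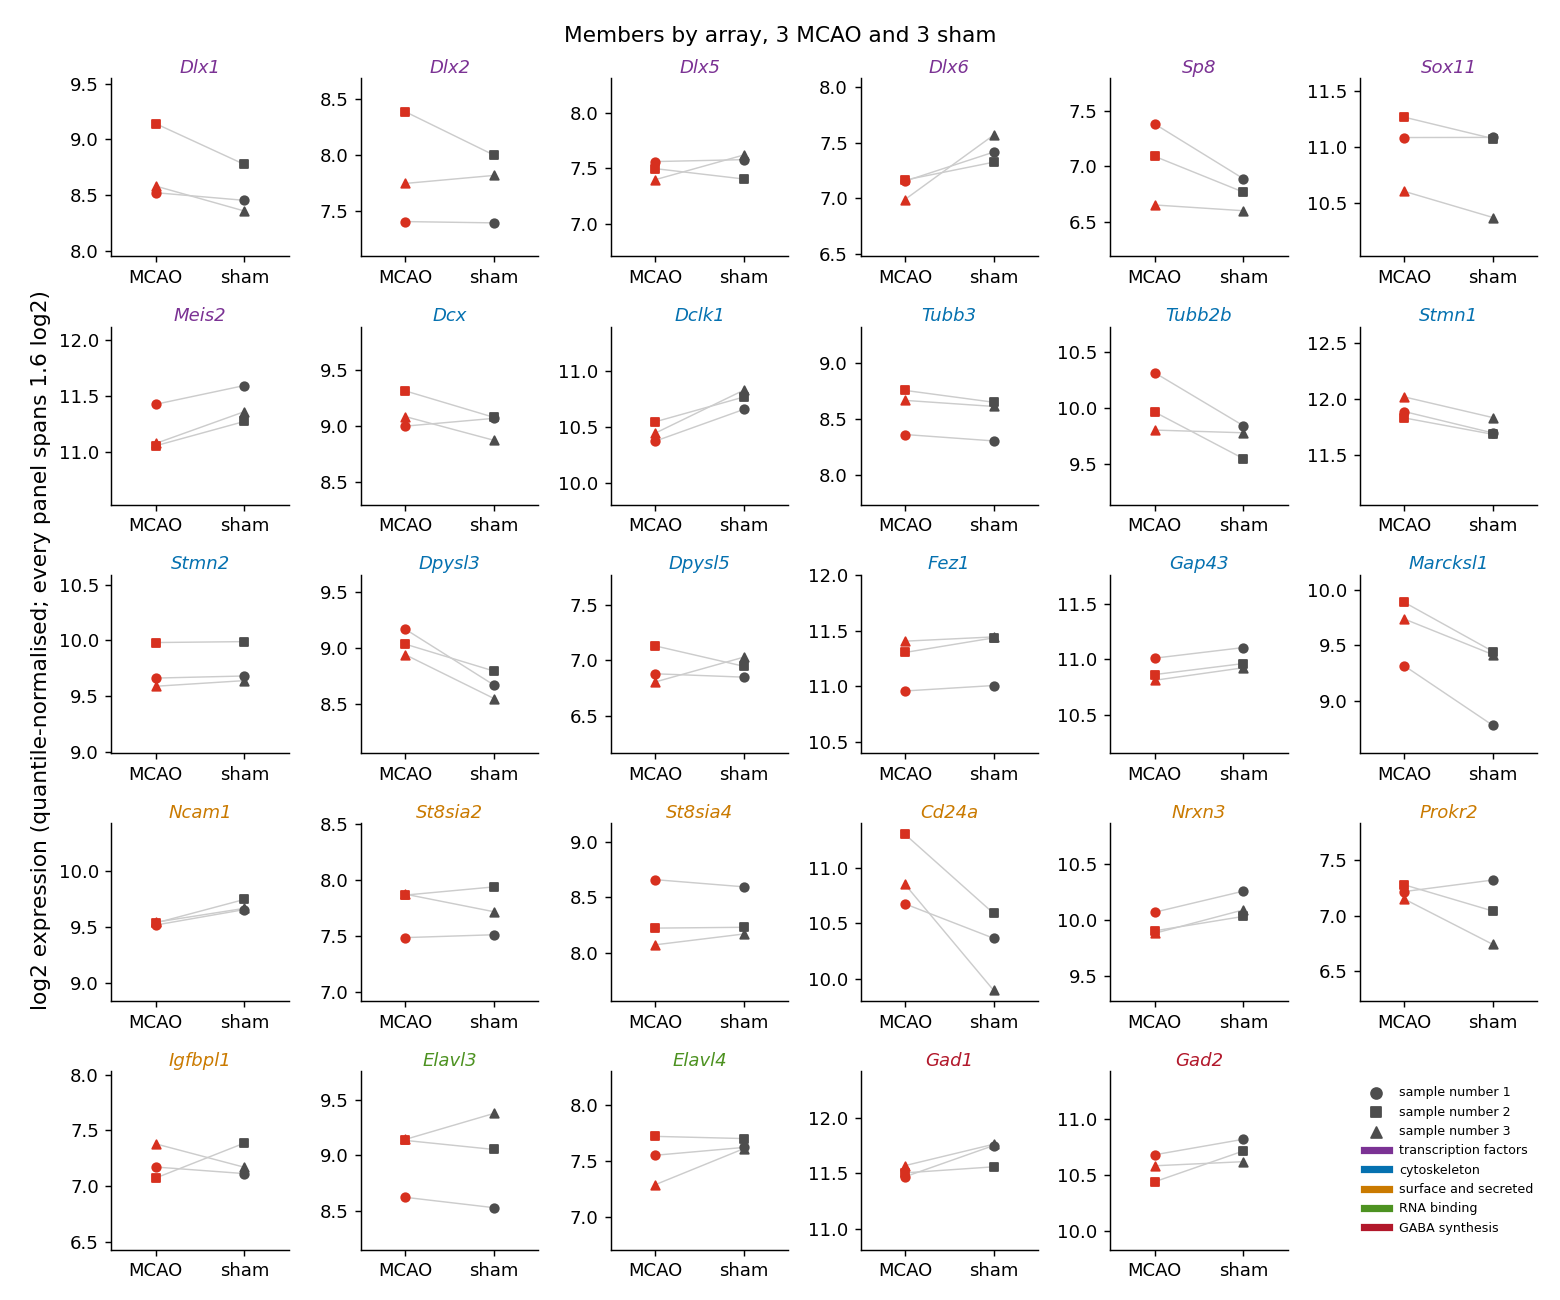
Log2 expression (vertical axis, quantile-normalised) of each measured member on the 3 MCAO arrays (red, left) and the 3 sham arrays (grey, right), with lines joining arrays of the same sample number; every panel spans 1.6 log2. In Cd24a and Dpysl3 all MCAO points lie above all sham points, and in Dlx6, Dclk1 and Ncam1 all lie below.

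Among the 7 measured transcription factors 0 passed with or without the block, 4 were above 0 and 3 below, and the median was 0.11 log2. Dlx1 and Dlx2, neighbouring genes whose homeodomain proteins act early in the interneuron lineage, spread widely among arrays of 1 group. Dlx1 read 8.52, 9.14 and 8.58 on MCAO arrays 1 to 3, against 8.45, 8.78 and 8.36 on sham arrays 1 to 3. Dlx2 read 7.40, 8.39 and 7.75 on the MCAO arrays, against 7.39, 8.00 and 7.82 on the sham arrays. The groups overlapped for both genes, with array 2 highest in each group. Their differences were 0.22 ± 0.18 and 0.11 ± 0.25 log2 (SE, n = 3 per group; adjusted p = 0.892 and 0.978).

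Dlx5 and Dlx6, the neighbouring pair that acts later in the lineage, both averaged lower in MCAO, and no test compared them with each other. Dlx6 had 7.16, 7.17 and 6.99 on the MCAO arrays, against 7.42, 7.33 and 7.57 on the sham arrays, so that all MCAO values lay below all sham values. The difference was −0.33 ± 0.09 log2 (SE; adjusted p = 0.226, and 0.0511 with the block), the lowest of any member. With the block it passed when both number 2 arrays were left out (−0.42, adjusted p = 0.00987), but not without the number 1 arrays (−0.37, 0.0590). Such reduced fits leave 1 degree of freedom for the gene's own variance. Dlx5 had 7.56, 7.50 and 7.40 in MCAO, against 7.58, 7.41 and 7.62 in sham, a difference of −0.05 log2 with a 95% interval from −0.25 to 0.15. Each Dlx gene was read by 1 probe set.

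Sp8, a zinc-finger factor required for some olfactory bulb interneurons, read 7.38, 7.09 and 6.65 on the MCAO arrays, against 6.89, 6.77 and 6.60 on the sham arrays. Its difference of 0.29 ± 0.18 log2 (SE; adjusted p = 0.793, and 0.0902 with the block) came mostly from samples 1 and 2, where MCAO minus sham was 0.49 and 0.32, against 0.05 for sample 3. Sox11, a SoxC factor of newborn neurons, read 11.09, 11.27 and 10.60 in MCAO, against 11.09, 11.08 and 10.37 in sham. Array 3 was lowest in both groups, and of the 6 Sox11 probe sets 5 lay above 0 and 1 below (−0.15 to 0.18). Meis2, a homeodomain factor of olfactory bulb and striatal neurons, read 11.43, 11.05 and 11.08 in MCAO, against 11.60, 11.27 and 11.36 in sham. Its difference was −0.22 ± 0.13 log2 (SE; adjusted p = 0.762, and 0.0898 with the block), below 0 in each same-numbered pair and for all 4 of its probe sets.

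Of the 11 cytoskeletal and growth cone genes 0 passed without the block and 3 with it, with 6 above 0 and 5 below and a median of 0.07 log2. Dcx, the microtubule protein most used to mark neuroblasts, read 9.00, 9.31 and 9.08 on the MCAO arrays, against 9.07, 9.08 and 8.87 on the sham arrays. Its 95% interval ran from −0.12 to 0.37 log2, and within sample 1 the MCAO value was the lower one. Of its 4 probe sets 3 lay above 0 and 1 below (−0.04 to 0.20).

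Marcksl1, a myristoylated protein that binds actin and calmodulin at the membrane, read 9.32, 9.89 and 9.74 on the MCAO arrays, against 8.78, 9.44 and 9.42 on the sham arrays. The groups overlapped because array 1 was lowest in each, while MCAO exceeded sham by 0.54, 0.44 and 0.32 log2 within samples 1 to 3. The difference of 0.43 log2, or 1.35-fold, had SE 0.21 and adjusted p = 0.661 in the fit without a block, and passed in the blocked fit (SE 0.07, adjusted p = 0.00536). With the block it passed whichever same-numbered pair was left out. All 4 Marcksl1 probe sets lay above 0, from 0.06 to 0.43. Their names end in _s_at or _x_at, which means that they may bind transcripts of related genes.

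Dpysl3, a collapsin response mediator protein that regulates growth cones, read 9.17, 9.04 and 8.94 on the MCAO arrays, against 8.67, 8.79 and 8.55 on the sham arrays. All MCAO values lay above all sham values, and the difference was 0.38 ± 0.10 log2 (SE; adjusted p = 0.174), or 1.30-fold. With the block it passed (adjusted p = 0.0141), and it missed the threshold without the number 1 arrays (0.32, adjusted p = 0.121) or the number 3 arrays (0.37, 0.0619). Its 2 dimmer probe sets read 0.28 and 0.11. Its relative Dpysl5 read between 6.80 and 7.13 in MCAO, against 6.85 to 7.03 in sham.

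Dclk1, a kinase with doublecortin domains in its long form, was the member whose probe sets disagreed most. The brightest probe set read 10.37, 10.55 and 10.44 on the MCAO arrays, against 10.66, 10.77 and 10.83 on the sham arrays, with no overlap. Its difference of −0.30 ± 0.08 log2 (SE; adjusted p = 0.229) passed with the block (0.0320), but not when the number 1 or number 3 arrays were left out (adjusted p = 0.153 and 0.175). Nor did the blocked fit pass it on the deposited values, or when all probe sets were tested as separate features (0.0554). A dimmer probe set read 8.46, 8.60 and 8.43 on the MCAO arrays, against 8.24, 8.04 and 8.25 on the sham arrays, which also do not overlap but lie the other way. It had a difference of 0.32 ± 0.09 log2 (SE; adjusted p = 0.280 over all probe sets, and 0.0844 with the block). Of the 9 Dclk1 probe sets 6 lay below 0 and 3 above. Which transcript each probe set binds was not analysed here.

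The promoter table used, from RefSeq on GRCm38.p6, lists 2 separate transcription starts for Dclk1 and 1 for Marcksl1. The bases upstream are shown because these genes differed between groups with the block and had an entry in that table. No entry was found there for Cd24a or Dpysl3. Searched on both strands were TAATTA (a core bound by homeodomain proteins such as Dlx), TGANTCA (bound by AP-1, the Fos and Jun dimers) and TTCNNNGAA (bound by STAT factors). Capitals mark a match. The printed upstream Dclk1 window is shorter, 189 bases, and ends 62 bases before the listed start because an earlier start is annotated there. The windows, on the plus strand and read 5′ to 3′, are chr4:129513331-129513580 for Marcksl1, chr3:55242114-55242302 for the upstream Dclk1 start and chr3:55461478-55461727 for the downstream one.
Marcksl1: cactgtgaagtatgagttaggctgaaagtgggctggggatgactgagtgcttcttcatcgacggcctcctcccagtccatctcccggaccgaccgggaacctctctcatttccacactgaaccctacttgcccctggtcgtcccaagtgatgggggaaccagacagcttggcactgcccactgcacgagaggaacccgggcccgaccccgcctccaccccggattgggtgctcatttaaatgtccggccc
Dclk1 upstream start: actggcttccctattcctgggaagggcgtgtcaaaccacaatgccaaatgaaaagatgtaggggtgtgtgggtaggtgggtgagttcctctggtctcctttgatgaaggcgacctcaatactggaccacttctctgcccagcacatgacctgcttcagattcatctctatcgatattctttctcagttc
Dclk1 downstream start: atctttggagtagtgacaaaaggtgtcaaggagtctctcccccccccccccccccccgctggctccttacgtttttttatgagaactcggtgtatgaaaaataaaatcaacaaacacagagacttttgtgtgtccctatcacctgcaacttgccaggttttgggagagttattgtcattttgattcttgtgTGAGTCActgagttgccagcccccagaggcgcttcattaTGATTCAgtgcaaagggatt
The downstream Dclk1 window held TGANTCA beginning 59 and 20 bases before the start. The other 2 windows, as printed, held none of the 3 motifs. The table had an entry for 21 members, and in the full 250 bases before their starts 2 of them (Dclk1 and Nrxn3) held TGANTCA, against 7.82% of all genes. TAATTA was found for 3 (Sp8, Dcx and Elavl4), against 5.65% of all genes, and TTCNNNGAA for 0, against 8.13%. These are matches of letters and say nothing about binding.

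None of the tubulins and stathmins passed, with or without the block. Tubb2b, a β-tubulin of young neurons, read 10.32, 9.97 and 9.80 on the MCAO arrays, against 9.84, 9.55 and 9.78 on the sham arrays (0.31 ± 0.14 log2, SE; adjusted p = 0.636, and 0.0864 with the block). Tubb3, the β-tubulin used as a pan-neuronal marker, read 8.36, 8.76 and 8.67 in MCAO, against 8.30, 8.65 and 8.61 in sham, and array 1 was lowest in each group. Stmn1, which binds free tubulin and is abundant in dividing and young cells, read 11.89, 11.83 and 12.02 in MCAO, against 11.69, 11.68 and 11.83 in sham (0.18 ± 0.08 log2, SE; adjusted p = 0.651). Its probe set may bind related transcripts. Stmn2, a stathmin of growing axons, read 9.66, 9.98 and 9.59 in MCAO, against 9.68, 9.99 and 9.64 in sham. It differed by −0.03 log2, with a 95% interval from −0.34 to 0.29.

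Gap43, a growth cone protein kept by some mature neurons, read 11.01, 10.86 and 10.81 on the MCAO arrays, against 11.11, 10.96 and 10.93 on the sham arrays. MCAO was the lower within each pair, by −0.09, −0.10 and −0.11 log2, so the pairs differed little from each other while the groups overlapped. Its adjusted p was 0.903, and 0.473 with the block. Fez1, an adaptor for kinesin transport, had 10.96, 11.30 and 11.41 in MCAO, against 11.01, 11.44 and 11.44 in sham, with array 1 lowest in each group.

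**Figure D2:**
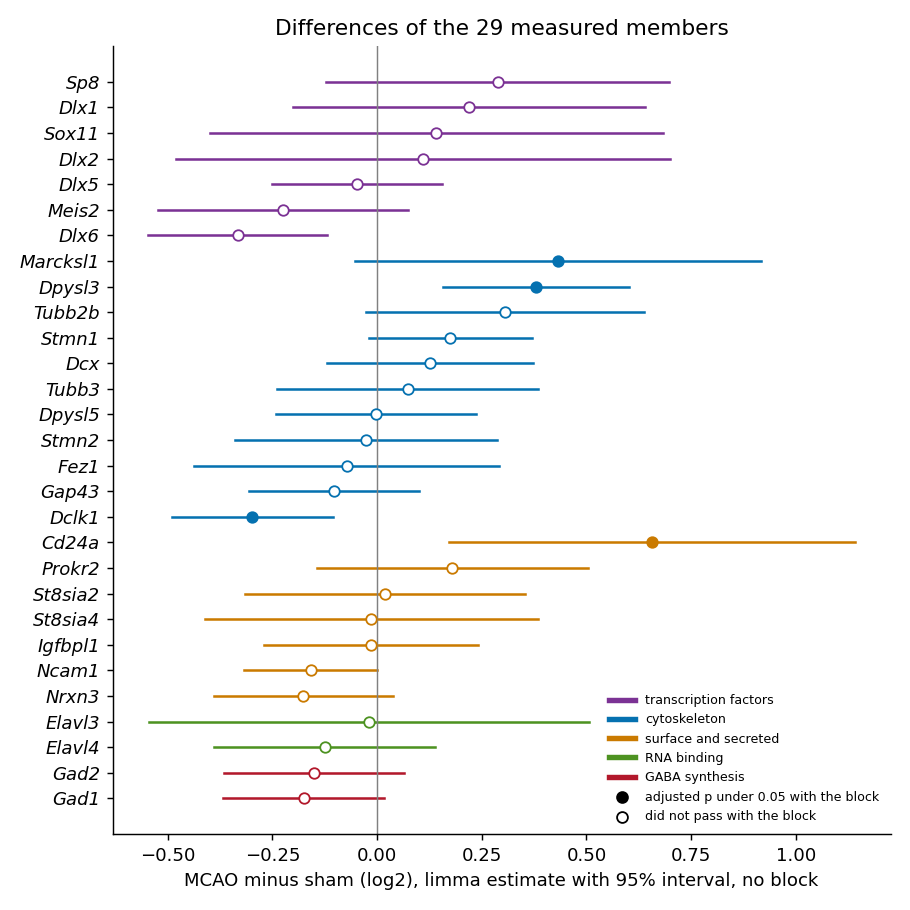
MCAO minus sham in log2 (horizontal axis) for the 29 members, ordered within their roles; points are limma estimates without the block and lines their 95% intervals (n = 3 per group). Filled points mark the 4 members that passed with the sample number as a block (Cd24a, Marcksl1, Dpysl3 and Dclk1), and Cd24a is the one whose interval reaches past 1.

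Of the 7 surface and secreted members 0 passed without the block and 1, Cd24a, with it. Cd24a, a small glycoprotein on the surface of neuroblasts that ependymal cells and some leukocytes also carry, had the largest difference of all members. It read 10.68, 11.30 and 10.85 on the MCAO arrays, against 10.37, 10.59 and 9.90 on the sham arrays, with no overlap. MCAO averaged 10.94 ± 0.32 and sham 10.29 ± 0.35 (SD, n = 3 each). They differed by 0.66 ± 0.21 log2 (SE; 95% interval 0.17 to 1.14), or 1.58-fold. Its adjusted p was 0.324 in the fit without a block. It rose in the blocked fit (adjusted p = 0.00465), also when any same-numbered pair was left out (adjusted p from 4.61e-07 to 0.0235). A smaller p in those reduced fits is not stronger evidence, since they leave 1 degree of freedom for the gene's own variance. Within samples 1 to 3 the MCAO value was higher by 0.31, 0.71 and 0.95.

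The other 2 Cd24a probe sets gave the same picture. On 1 of them the values were 9.63, 10.11 and 9.55 in MCAO, against 9.02, 9.20 and 8.53 in sham, which gave 0.85 ± 0.20 log2 (SE; adjusted p = 0.195 over all probe sets, and 7.40e-04 with the block). On the other the difference was 0.53 ± 0.16 (adjusted p = 0.379, and 0.00829 with the block). All MCAO values lay above all sham values on each of the 3.

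Markers of ependymal cells, and of microglia and phagocytes, lay above 0 in the same samples. Whether the microglia and phagocytes carried Cd24a was not measured. All 8 measured ependymal markers were above 0, with a median of 0.25 log2 and 0 past the threshold (1 with the block). Their mean level ran from 8.62 to 9.30 log2 in MCAO and from 8.31 to 9.17 in sham. Of 10 microglia and phagocyte markers 5 rose and 5 did not pass, all 10 were above 0, and their mean level ran from 9.14 to 9.78 in MCAO and from 8.44 to 8.49 in sham. Their part in the Cd24a and Marcksl1 differences was not tested. In bulk tissue more cells of a type and more RNA per cell cannot be told apart.

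The polysialic acid system did not pass at any of its members. Ncam1, the adhesion molecule that carries polysialic acid, read 9.52, 9.54 and 9.54 on the MCAO arrays, against 9.66, 9.75 and 9.67 on the sham arrays. The groups did not overlap, and the spread within MCAO was the smallest of any member (SD 0.01), with a difference of −0.16 ± 0.07 log2 (SE; adjusted p = 0.570, and 0.233 with the block). Of the 7 Ncam1 probe sets 5 lay below 0 and 2 above (−0.16 to 0.20). The highest of these differences came from a dim probe set. It read 6.14, 6.07 and 6.22 on the MCAO arrays, against 6.06, 5.94 and 5.82 on the sham arrays. Those values do not overlap either but lie the other way (limma, adjusted p = 0.673 over all probe sets, and 0.266 with the block). St8sia2, the polysialyltransferase prominent in young neurons, had 7.48, 7.87 and 7.87 in MCAO, against 7.51, 7.94 and 7.72 in sham. St8sia4, the other polysialyltransferase, had 8.66, 8.22 and 8.07 in MCAO, against 8.59, 8.23 and 8.17 in sham. Their differences were 0.02 and −0.01 log2, with 95% intervals of −0.32 to 0.35 and −0.41 to 0.38.

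Nrxn3, a presynaptic adhesion protein, read 10.07, 9.90 and 9.88 on the MCAO arrays, against 10.26, 10.03 and 10.09 on the sham arrays, and all 5 of its probe sets lay below 0 (−0.22 to −0.08). It did not pass (−0.18 ± 0.09 log2, SE; adjusted p = 0.711, and 0.179 with the block). Prokr2, the prokineticin receptor needed for migration to the olfactory bulb, read 7.22, 7.28 and 7.15 in MCAO, against 7.32, 7.04 and 6.74 in sham. Its SD was 0.06 among the MCAO arrays and 0.29 among the sham arrays. Its ligand Prok2 differed by 0.02 log2 (adjusted p = 0.988). Igfbpl1, a secreted protein related to the insulin-like growth factor binding proteins, read 7.17, 7.07 and 7.38 in MCAO, against 7.11, 7.38 and 7.17 in sham.

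**Figure D3:**
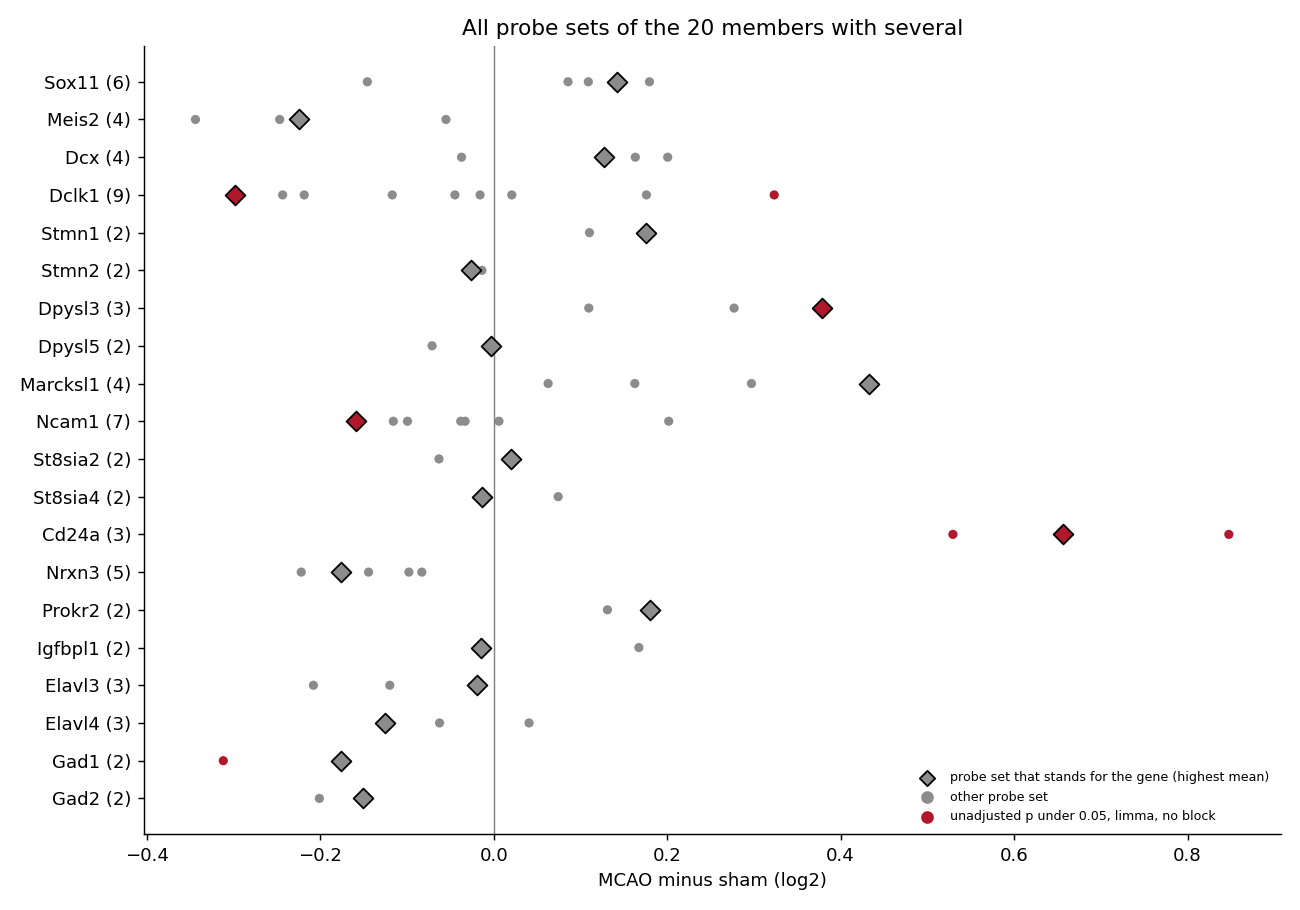
MCAO minus sham in log2 (horizontal axis) for each probe set of the 20 members with several, the number of probe sets in brackets; diamonds mark the probe set that stands for the gene and red marks an unadjusted p under 0.05 (limma, no block, n = 3 per group). Dclk1 has red points on both sides of 0, and the 3 Cd24a probe sets lie between 0.53 and 0.85.

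Elavl3 and Elavl4, RNA-binding proteins that stabilise neuronal transcripts, did not pass. Elavl3 read 8.62, 9.13 and 9.14 on the MCAO arrays, against 8.53, 9.05 and 9.38 on the sham arrays, so that array 1 was lowest in each group and the groups overlapped. Its 95% interval, −0.54 to 0.51 log2, was among the widest. Elavl4 read 7.55, 7.72 and 7.29 in MCAO, against 7.62, 7.70 and 7.61 in sham, and differed by −0.12 ± 0.11 log2 (SE; adjusted p = 0.913).

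Both enzymes of GABA synthesis read below sham on their brightest probe sets, and neither passed there, with or without the block. Gad1 had 11.47, 11.51 and 11.57 on the MCAO arrays, against 11.75, 11.56 and 11.76 on the sham arrays. Its MCAO values overlapped the sham range on array 3 alone, and the difference was −0.18 ± 0.08 log2 (SE; adjusted p = 0.645, and 0.217 with the block). A dimmer Gad1 probe set read 10.38, 10.50 and 10.33 in MCAO, against 10.68, 10.79 and 10.66 in sham. These did not overlap, and the difference of −0.31 ± 0.08 log2 (SE; adjusted p = 0.228 over all probe sets) passed with the block (adjusted p = 0.0380). Gad2 had 10.68, 10.44 and 10.58 in MCAO, against 10.82, 10.72 and 10.62 in sham, and both of its probe sets lay below 0 (−0.20 and −0.15). Probe sets of 1 gene lay on both sides of 0 for 8 of the 20 members with several (Sox11, Dcx, Dclk1, Ncam1, St8sia2, St8sia4, Igfbpl1 and Elavl4), and Dclk1 alone had an unadjusted p under 0.05 on both sides. Over all 78 probe sets of the members, 0 passed without the block (0.644% of all probe sets did), and 9 had an unadjusted p under 0.05, where 7.52% of all probe sets did. With the block 6 passed, where 3.61% of all probe sets did: the 3 of Cd24a and 1 each of Marcksl1 and Dpysl3, all higher, and the dimmer one of Gad1, lower.

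Differences within same-numbered samples were often of 1 sign. In 18 of 29 members, or 62.1%, MCAO lay on the same side of sham in all 3 pairs (8 higher and 10 lower), against 39.8% of all genes (20% higher and 19.9% lower). The members are brighter than most genes: 26 of 29 lay above the median gene in sham, as 50% of all genes do. Among genes above that median the share was 49.2%, and among the 26 members it was 65.4%. In size the 18 mean differences ran from 0.03 log2 for Stmn2 to 0.66 for Cd24a, with a median of 0.20 and 9 of them at 0.2 or more.

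Array 1 was often at 1 end of both groups. Array 1 was the lowest of its group in both groups for 8 members (Dlx2, Dclk1, Tubb3, Fez1, Marcksl1, Ncam1, St8sia2 and Elavl3), or 27.6%, against 26.3% of all genes. It was the highest in both groups for 7 (Sp8, Meis2, Tubb2b, Gap43, St8sia4, Nrxn3 and Gad2), or 24.1%, against 18.5% of all genes. Groups did not overlap in 5 members, or 17.2% (Cd24a and Dpysl3 higher, Dlx6, Dclk1 and Ncam1 lower), against 13.8% of all genes (8.44% higher and 5.37% lower) and 13.9% of genes above the median sham level. With 3 arrays a group, the smallest 2-sided p an exact permutation test allows is 0.1.

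**Figure D4:**
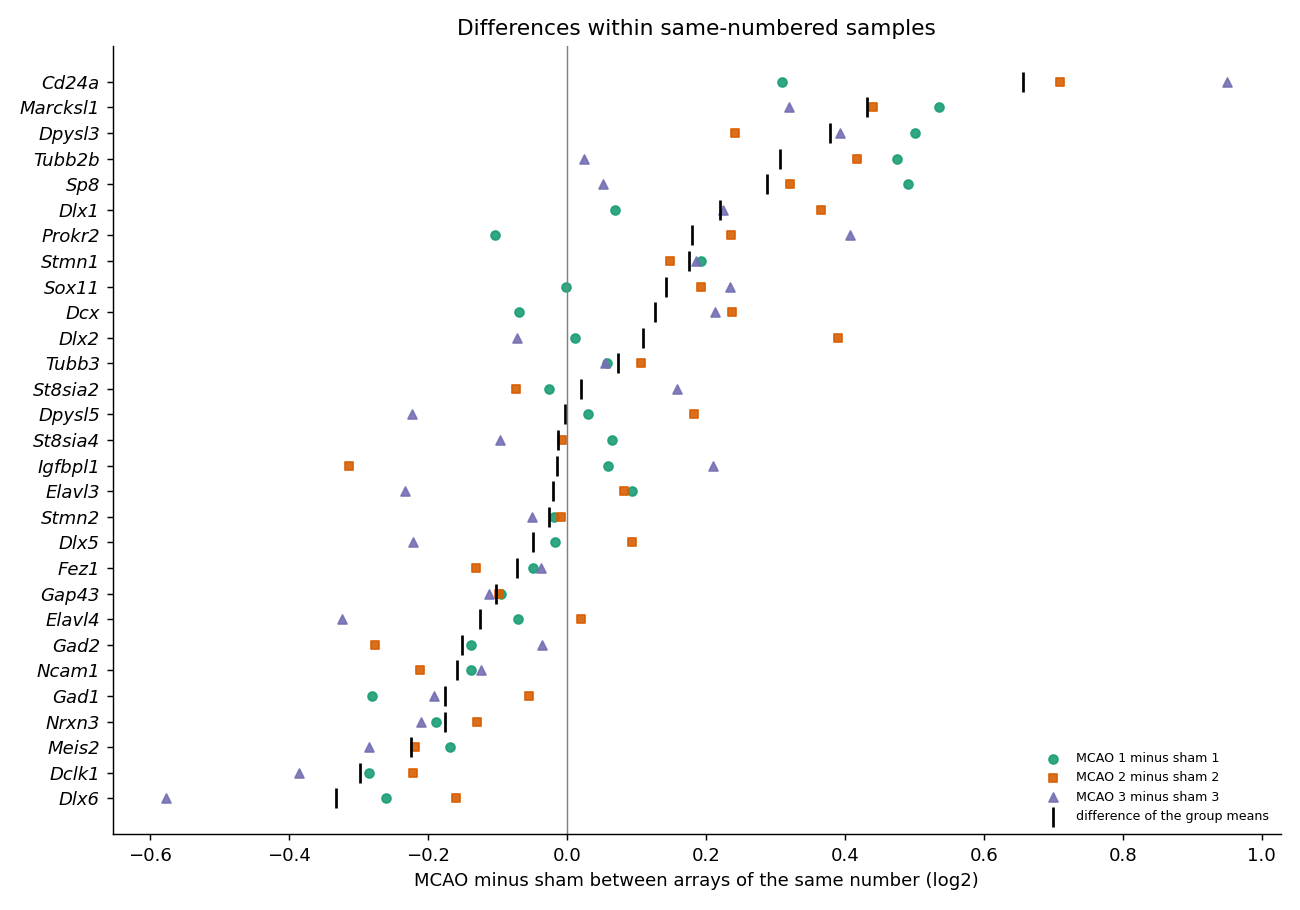
MCAO minus sham in log2 (horizontal axis) between arrays of the same sample number, 3 points a member, with the difference of the group means as a bar. For Cd24a the 3 points lie at 0.31, 0.71 and 0.95, and for Gap43 between −0.11 and −0.09.

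Other genes of the same biology were read from the same fit. Of 20 further genes of neuroblast migration 0 passed, with 8 above 0 and 12 below and a median of −0.10 log2. With the block Nrp1, a semaphorin and VEGF coreceptor (0.49, adjusted p = 0.0101), and Cxcr4, the chemokine receptor that guides neuroblasts (0.34, 0.0322), rose. Pafah1b1, the dynein regulator whose loss causes lissencephaly, fell with it (−0.31, 0.0322). Of 17 measured further transcription factors of the interneuron lineage 0 passed with or without the block (median −0.01). Sox4, a SoxC factor like Sox11, read 10.26, 11.05 and 10.50 in MCAO, against 10.11, 10.54 and 10.30 in sham (adjusted p = 0.853, and 0.0764 with the block). Of 11 genes of mature GABA neurons and interneuron subtypes 0 passed either way and 9 lay below 0, with a median of −0.10. Slc32a1, which loads GABA into vesicles, differed by −0.21 ± 0.19 log2 (SE; adjusted p = 0.910).

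The listed markers of striatal projection neurons and of mature neurons in general lay below 0 throughout. All 10 measured markers of striatal projection neurons did (median −0.20; 0 passed, and 2 fell with the block), as did all 11 of mature neurons in general (median −0.21; 0 passed, and 3 fell with the block). The mean level of the striatal list ran from 11.08 to 11.26 log2 in MCAO and from 11.34 to 11.53 in sham. Drd1, the dopamine receptor of direct-pathway neurons, differed by −0.34 log2 (adjusted p = 0.101, and 0.0179 with the block). Of members described above as also expressed by mature neurons, Meis2, Nrxn3, Gad1, Gad2 and Elavl4 differed by −0.22, −0.18, −0.18, −0.15 and −0.12 log2. Gap43 differed by −0.10, Stmn2 by −0.03, Elavl3 by −0.02 and the pan-neuronal Tubb3 by 0.07. Other members may be expressed there too, among them some of the 13 members that lay above 0. The part of mature neurons in those values was not tested.

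Some proliferation genes rose. Of 9 measured genes on the list of proliferating progenitors 4 rose and 5 did not pass (8 rose with the block). All 9 were above 0, and the median was 0.73 log2. Their mean level ran from 8.39 to 8.75 in MCAO and from 7.74 to 8.10 in sham. Cdk1, the mitotic kinase, read 8.12, 8.19 and 8.11 in MCAO, against 6.78, 7.35 and 6.92 in sham (1.12 log2, adjusted p = 0.0123). Most genes on that list are active in dividing cells of any type, and which cells carried them was not measured. The difference between that list and the neuroblast members was not tested. Oligodendrocyte precursors (7 markers, median −0.01), myelinating oligodendrocytes (7, −0.11), endothelial cells (7, 0.09) and red blood cells (2, −0.07) had 0 genes past the threshold, with or without the block. Of 8 astrocyte markers 2 rose, or 4 with the block (median 0.30).

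**Figure D5:**
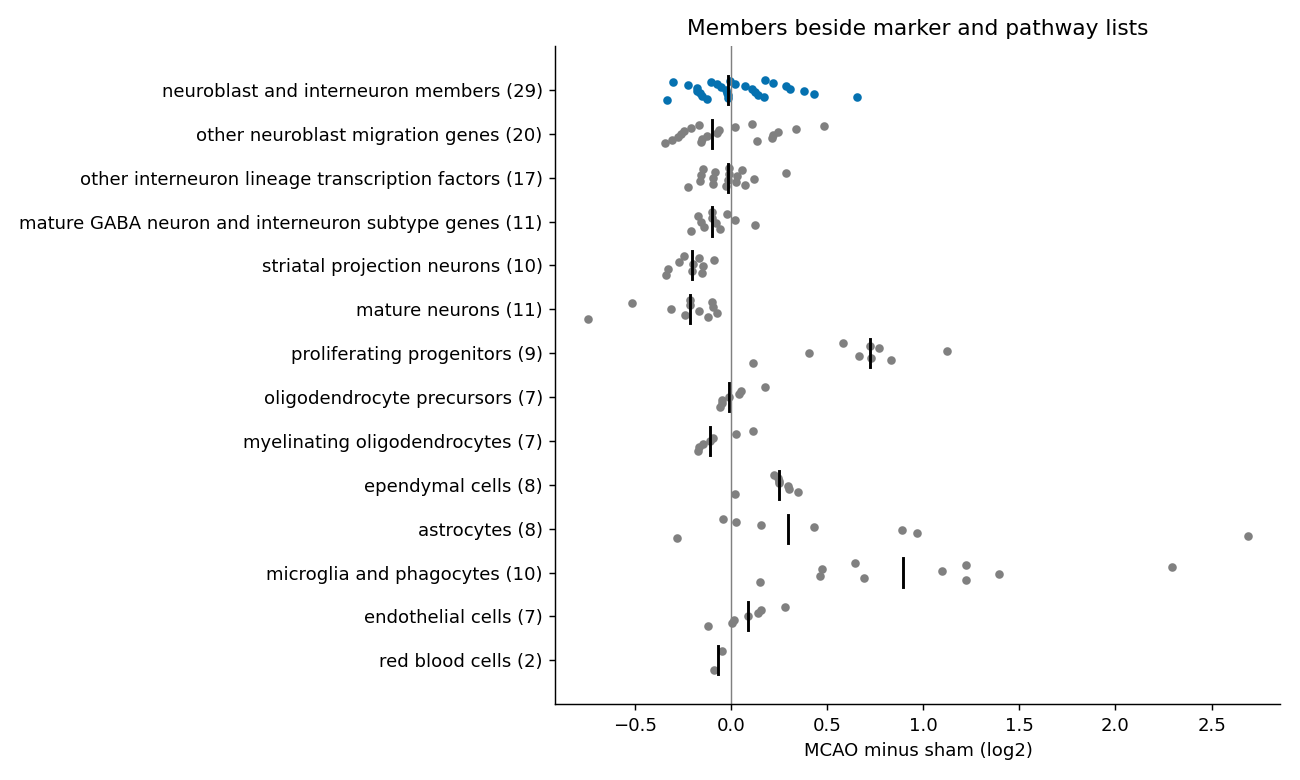
MCAO minus sham in log2 (horizontal axis) for the 29 members (blue) and for the measured genes of 13 other lists (grey), each point a gene and each bar the list's median; numbers of genes are in brackets. The members centre on −0.01, the list labelled proliferating progenitors on 0.73 and mature neurons on −0.21.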

How the data were processed

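Total RNA of the SVZ was measured on 6 one-colour arrays. The deposited values are log2 expression, 1 per probe set, for 45101 probe sets; no source used here states the authors' background correction, probe summary or normalization. Array medians lay between 6.57 and 6.59 and 90th percentiles between 8.85 and 9.06, so quantile normalization between arrays was added. Poly-A control probe sets averaged 7.46 log2 on MCAO 1 and 7.71 on sham 1, against 8.33 to 8.83 on the other 4 arrays. The array annotation gave 1 symbol to 34958 probe sets. The table has no detection calls, and the number of arrays limits the precision.

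The 2 groups were compared with lmFit and eBayes (limma 3.58.1, R 4.3.3; 2-sided, no block, Benjamini-Hochberg over 18194 genes, threshold 0.05); the script was tested on simulated data. Same-numbered samples deviated together across genes (r = 0.77, 0.44 and 0.48 for numbers 1, 2 and 3), each above 0.1, so the sample number as a block is given beside results it changes. Within a group the deviations cancel out by construction. Number 1 arrays that stand apart in both groups can therefore raise the correlations for numbers 2 and 3 as well. These correlations alone cannot show that numbers 2 and 3 pair the samples. What the numbers stand for is not stated in the labels. Alternatives were other normalizations, probe set rules, variance models, a filter on dim genes and arrays left out. All members are named, and of other lists at most the 3 genes with the smallest p and Prok2, Pafah1b1, Slc32a1 and Sox4. The dimmer probe sets of Cd24a, Dclk1, Ncam1 and Gad1 were singled out after their values were seen. List genes lacking a single-symbol probe set were left out. The members and lists were chosen with earlier results of these data known. Promoter sequences are from RefSeq, GRCm38.p6.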

Additional observations from a re-analysis of the deposited data

How the results depend on the processing

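With no block, 0 members passed under every alternative run, including each array left out. With the sample number as a block 4 members and 1113 genes passed, with that block on deposited values 3 and 817, and, as alternatives chosen after seeing the data, with the block on all probe sets 3 members by their brightest probe set and 1262 probe sets, and with the block but without the arrays numbered 1, 2 or 3 2, 5 and 4 members and 688, 1712 and 648 genes. Cd24a and Marcksl1 passed in all 6 of these fits. Those with the block and a pair left out are a weak check, as they rest mostly on variance borrowed from all genes. The blocked fits on all 6 arrays lean on that borrowed variance as well. Leaving out 1 array without the block gave 44 (without sham 3) to 209 genes, a median member difference of −0.055 to 0.067 and 7 to 12 members with no overlap, which a group of 2 makes easier; without both number 1 arrays 15 members did not overlap.

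The sign turned for members near 0. On the values as deposited, with or without the block, Stmn2 read 0.0081, Dpysl5 0.030, St8sia4 0.015, Igfbpl1 0.015 and Elavl3 0.0031. With a common median Dpysl5 read 0.020, St8sia4 0.0048 and Igfbpl1 0.0040, and with the mean of probe sets St8sia2 read −0.022, St8sia4 0.030 and Igfbpl1 0.076. With the block, Dlx2 read −0.030 and Igfbpl1 0.13 without the number 2 arrays, and Dlx5 0.038, Dpysl5 0.11, St8sia2 −0.050, St8sia4 0.028 and Elavl3 0.087 without the number 3 arrays. With 1 array left out the ranges were −0.16 to 0.33 for Dlx2, −0.10 to 0.33 for Sox11, −0.037 to 0.19 for Tubb3, −0.14 to 0.084 for Stmn2, −0.10 to 0.063 for Dpysl5, −0.22 to 0.059 for Fez1, −0.086 to 0.15 for St8sia2, −0.18 to 0.12 for St8sia4, −0.10 to 0.067 for Igfbpl1 and −0.25 to 0.18 for Elavl3. The cause was not tested. The other 18 members kept their sign under all alternatives run for them; Marcksl1, with _s_at and _x_at probe sets alone, had no value where those were left out.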
